A study of Mus musculus with 4 samples.

Results

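The MYC network was followed across 4 RNA sequencing libraries of a mouse inner ear cell line, as 10 genes chosen by name: Myc, Mycn and Mycl, their partner Max, the repressors Mxd1, Mxd3, Mxd4, Mxi1 and Mnt, and the giant MAX partner Mga. All 10 have a row among the 49997 gene symbols of the count tables. iMOP cells are immortalized multipotent otic progenitors, a wild-type line by the labels, and are known to have been derived by expressing MYC in progenitors that make SOX2. The proliferating group (2 libraries) grew in DMEM/F12 with B27, carbenicillin and bFGF at 20 ng/ml. The neuron group (2 libraries) was derived from the same line and grew in Neurobasal medium with N21, L-glutamine and K03861, which blocks the kinase CDK2 of the cell cycle, at 1 µM. All cultures therefore share the line and its MYC history, there is no line without it, and the sampling time of the neurons is not given in the labels. In the Myc row, transcripts of the resident gene and of an introduced copy cannot be told apart. Where counts or levels are given for a group as a pair of values, replicate 1 comes before replicate 2.

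MYC, MYCN and MYCL are basic helix-loop-helix leucine zipper proteins that bind DNA only as heterodimers with MAX, most strongly at the E-box CACGTG, and raise transcription of genes for ribosome production, metabolism and cell division. MXD proteins, MXI1 and MNT also dimerize with MAX, occupy the same sites and bring the SIN3 histone deacetylase complex, and several MXD genes are known to rise as cells leave the cycle and differentiate. MGA pairs with MAX inside a variant Polycomb complex, PRC1.6, that silences genes. The network is therefore often read as a balance between activating and repressing dimers that compete for MAX.

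The loci are given for GRCm38, the assembly also called mm10, as RefSeq annotates them. Myc (gene ID 17869) lies at chr15:61985341-61990361 on the plus strand, Mycn (18109) at chr12:12936093-12941836 on the minus strand and Mycl (16918) at chr4:122995588-123002490 on the plus strand. Max (17187) lies at chr12:76937269-76962323 on the minus strand and Mga (29808) at chr2:119872503-119970129 on the plus strand. Of the repressors, Mxd1 (17119) lies at chr6:86647044-86669234, Mxd3 (17121) at chr13:55325170-55329900 and Mxd4 (17122) at chr5:34176580-34187710, all on the minus strand. Mxi1 (17859) lies at chr19:53310128-53373293 and Mnt (17428) at chr11:74830806-74845725, both on the plus strand. Mxd3 overlaps the coding gene Prelid1, and Mxi1 and Mxd1 each overlap a long noncoding RNA gene. Since the sources used here do not state whether counting used strand, reads in those overlaps may belong to either gene. Prelid1 had 78 to 106 counts, and Gm30541, the noncoding gene at Mxi1, had 72 and 21 against 104 and 15.

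Promoter windows from RefSeq (GRCm38.p6, 250 bases before to 50 after a start site) were found for 9 of the 10 genes, all but Myc. The E-box CACGTG, which reads the same on both strands, occurred in the windows of 3 of these 9 genes, Max, Mnt and Mxd4, against 8.09% of all 27025 genes with a window. The related element CACGCG, searched on both strands, occurred for Mycl and Mga, against 10.5% of all genes. These stretches are shown because they hold the letters that network dimers bind near annotated start sites of genes of the network itself. The stretch shown for Mxd4 lies outside the locus given above, and that of Mnt runs across the start of its locus. Those of Max, Mycl and Mga lie inside theirs. The motif stands in capitals, read in the direction of transcription from 5′ to 3′, and Mga carries it as the reverse complement.
Max, chr12:76962239-76962291, minus strand: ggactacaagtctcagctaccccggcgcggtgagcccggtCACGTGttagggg
Mnt, chr11:74830761-74830846, plus strand: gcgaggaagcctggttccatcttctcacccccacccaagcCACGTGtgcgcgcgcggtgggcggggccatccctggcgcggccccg
Mxd4, chr5:34187884-34187960, minus strand: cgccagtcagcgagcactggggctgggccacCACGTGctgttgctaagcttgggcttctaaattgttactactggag
Mycl, chr4:122995871-122995940, plus strand: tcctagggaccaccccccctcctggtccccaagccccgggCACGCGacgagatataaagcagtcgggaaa
Mga, chr2:119897167-119897237, plus strand: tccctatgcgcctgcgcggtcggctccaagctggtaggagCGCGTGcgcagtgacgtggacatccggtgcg

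A match is a description of letters only, and no binding was measured. Max, Mnt and Mxd4, the genes with CACGTG, had fitted changes of -0.46, -0.13 and -0.50 on the log2 scale, and none of these changes passed the test described below.

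The libraries held 7446361 to 14484011 counts, of which 53.3% to 76.1% fell on the 18S ribosomal RNA row, leaving 2595578 to 3850766 counts for all other genes. Proliferating replicate 2 stood apart from the other 3 libraries: 17762 genes had a count in it, against 20012 to 21637. The summed level of 8 division markers was 97.3 CPM there (counts per 1000000, over a TMM-adjusted library size, a scaling that equalizes the bulk of genes) against 265 to 428 CPM in the others. Neuron replicate 1 had the highest division marker sum of the 4. The 12 neuron markers summed to 164 and 349 CPM in proliferating replicates 1 and 2 and 202 and 367 CPM in the neuron replicates. The groups overlapped, and this sum was higher in replicate 2 of both groups. Tubb3 was at 19.1 and 193 CPM in proliferating cells against 28.7 and 104 CPM in neurons. Of 11 tested neuron markers, Map2 and Elavl4 were higher in both neuron libraries (18.2%, against 12.9% of all tested genes), and 0 were lower in both (against 14.5%). Of the 8 otic progenitor markers, Pax2 and Pax8 were at 0 counts in all libraries, while Sox2 had 216 to 402 counts. Glial markers summed to 137 and 119.5 CPM in proliferating and 70.4 and 24.9 CPM in neuron libraries, with Gfap, the astrocyte filament gene, at 181 and 89 against 1 and 2 counts. Markers of hair cells, fibroblasts and immune or endothelial cells were low, with summed levels of at most 9.66, 17.1 and 1.34 CPM. Of 5, 6 and 5 such markers, 2, 2 and 1 were at 0 counts in all libraries. In bulk RNA, fewer cells of a type and less RNA per cell cannot be told apart, and the part of these differences in the results below was not tested.

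Myc dominated the network in every library. Proliferating libraries held 14011 and 7018 Myc counts and neuron libraries 4762 and 6623. Among protein-coding genes Myc ranked 3rd by count in both proliferating libraries, 5th in neuron replicate 1 and 4th in neuron replicate 2. A count is not corrected for gene length. By the deposited RPKM, which divides by a length, the ranks were 19 and 36 in proliferating and 62 and 41 in neuron libraries. That length works out at 9590 bases for Myc, longer than the whole locus given above, against merged exons of 2717 bases. The RPKM ranks are tied to such lengths, and ranks by merged exon length were not computed. Its share of all counts outside the 18S row in proliferating cells was 0.403% (0.397% to 0.410%, 95% Wilson interval) for replicate 1 and 0.270% (0.264% to 0.277%) for replicate 2. The share was 0.124% in neuron replicate 1 (0.120% to 0.127%) and 0.191% in neuron replicate 2 (0.187% to 0.196%). These intervals do not overlap between any libraries, but they cover counting error only, since PCR reads without molecular identifiers are not independent molecules. Myc alone made up 70.6% to 90.7% of the counts of the 10 genes.

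Both neuron libraries lay below both proliferating libraries for Myc. Its level was 1148 and 947 CPM in the proliferating libraries, a mean of 1048 ± 142 CPM (SD, n = 2), and 399 and 673 CPM in the neuron libraries, a mean of 536 ± 194 CPM (SD, n = 2). The fitted log2 fold change of neurons over proliferating cells was -0.97 with SE 0.42. This did not pass the edgeR quasi-likelihood test (unadjusted p-value 0.0525, Benjamini-Hochberg adjusted p-value 0.9998). The difference was uneven between the pairs of equal replicate number, -1.52 for replicate 1 and -0.49 for replicate 2, and the fit without proliferating replicate 2 gave -1.10. The level stayed lower in neurons when counts were scaled by the library total with or without the 18S row. With 2 libraries against 2, an exact permutation of a single value has 0.333 as its smallest two-sided p, and no such test was made. Whether the replicates came from separate differentiations is not given beyond the words biological replicate, and the p-values measure the spread between these libraries.

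**Figure D1:**
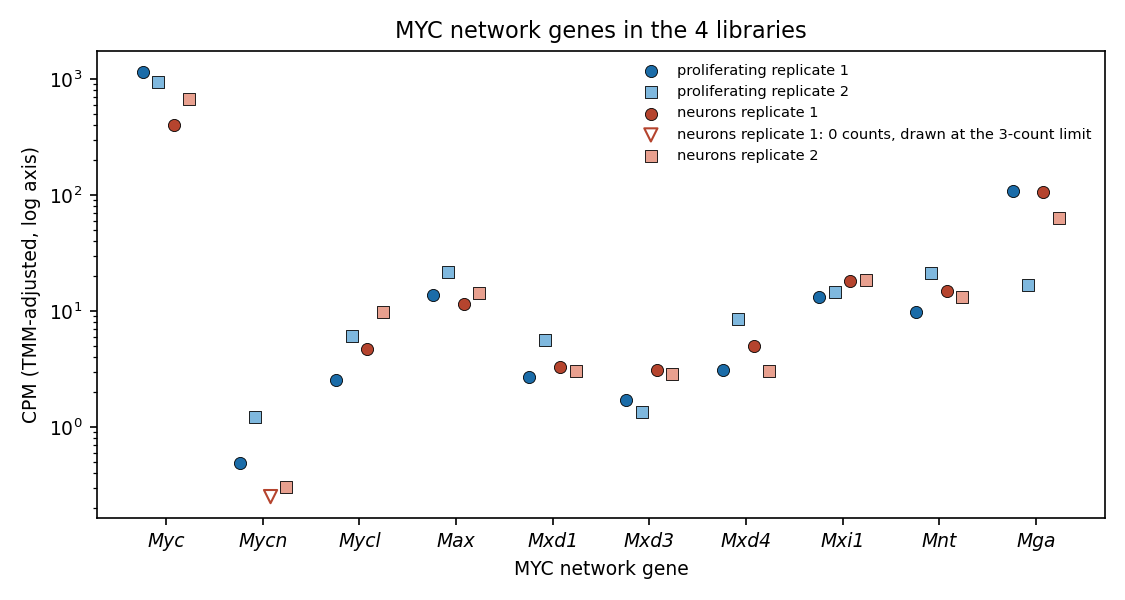
Level of each of the 10 network genes in CPM (log axis) in the 4 libraries, blue for proliferating and red for neurons, circles for replicate 1 and squares for replicate 2. Myc sits between 399 and 1148 CPM in every library, above all other members, and Mycn at 0 to 1.21 CPM; the open triangle marks 0 counts at the 3-count limit.

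The paralogs of Myc were minor by comparison. Mycl, the family member first known from lung cancer, had 31 and 45 counts in proliferating cells against 56 and 97 in neurons. In CPM these were 2.54 and 6.07 against 4.70 and 9.86, so the groups overlapped, because proliferating replicate 2 exceeded neuron replicate 1. Within each pair the neuron library was the higher, by 0.84 and 0.68 on the log2 scale. The fit gave 0.77 (SE 0.64, edgeR adjusted p-value 0.9998). With the 18S row kept in the library total both neuron libraries lay above both proliferating ones. The size of this change rested on single libraries, at 1.51 without proliferating replicate 2, 1.16 without neuron replicate 1, 0.22 without proliferating replicate 1 and 0.14 without neuron replicate 2.

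Mycn, the paralog best known from neural progenitors and neuroblastoma, was close to the limit of detection. It had 6 and 9 counts in proliferating cells against 0 and 3 in neurons, too few for the filter on low counts, so it was not tested. The 0 of neuron replicate 1 allows up to 3 counts, or 0.252 CPM. Pooled over libraries, 15 counts against 3 gave a 5.55-fold higher level in proliferating cells with an exact 95% counting interval of 1.57 to 29.9, which leaves out the spread between cultures. Of the summed counts of Myc, Mycn and Mycl, Myc held 99.7% and 99.2% in proliferating cells against 98.8% and 98.5% in neurons.

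Max, the obligate partner, had 168 and 162 counts in proliferating cells against 138 and 140 in neurons. The mean of 17.8 ± 5.73 CPM in proliferating cells compared with 12.9 ± 1.88 CPM in neurons (SD, n = 2 per group). Neuron replicate 2, at 14.2 CPM, lay above proliferating replicate 1, at 13.8 CPM, so the groups overlapped by a narrow margin. They did not overlap when counts were scaled by the library total, with or without the 18S row. The fitted change was -0.46 (SE 0.49, edgeR adjusted p-value 0.9998), with -0.25 and -0.61 in the pairs, -0.094 without proliferating replicate 2 and -0.79 without proliferating replicate 1.

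Among the 5 repressors, Mxi1 and Mxd3 were higher in both neuron libraries than in both proliferating ones, and Mxd1, Mxd4 and Mnt overlapped. Mxi1, which encodes a MAX-binding repressor of MYC targets, had 160 and 107 counts in proliferating cells against 215 and 182 in neurons. That is 13.1 and 14.4 CPM against 18.03 and 18.5 CPM, a separation larger than the spread within either group. The fitted change was nevertheless small, 0.41 with SE 0.45 (edgeR adjusted p-value 0.9998), with 0.45 and 0.35 in the pairs and 0.48 without proliferating replicate 2. The groups overlapped when the 18S row was kept in the library total, at 21.5 and 10.3 against 22.7 and 12.6 counts per 1000000.

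Mxd3, the family member known for expression in dividing cells during S phase, rested on few reads. It had 21 and 10 counts in proliferating cells against 37 and 28 in neurons, or 1.72 and 1.35 CPM against 3.10 and 2.85 CPM. Its fitted change of 0.94 (SE 0.60, edgeR adjusted p-value 0.9998) was the largest positive value among the tested members, with 0.78 and 0.98 in the pairs and 0.79 without proliferating replicate 2. Here too the groups overlapped with the 18S row kept in the library total. The division marker sum was higher in the neuron library of each pair, and its part in the level of Mxd3 was not tested.

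Mxd1, Mxd4 and Mnt shared a pattern by pair. In CPM each was higher in neurons in the replicate 1 pair and lower in the replicate 2 pair. Proliferating replicate 2 had the highest level of all 4 libraries for each. The same held when counts were scaled by the library total without the 18S row. With that row kept, the highest library was neuron replicate 1 for Mxd4 and Mnt and proliferating replicate 1 for Mxd1. On that scale Mxd1 was lower in neurons in both pairs. Mxd1 had 33 and 42 counts in proliferating cells against 39 and 30 in neurons, with pair changes of 0.26 and -0.85. Mxd4 had 38 and 63 counts against 60 and 30, with pair changes of 0.66 and -1.42. Mnt, the most broadly expressed repressor of the family, had 120 and 156 counts against 178 and 129, with pair changes of 0.59 and -0.68. The fits over all libraries gave -0.39 (SE 0.58) for Mxd1, -0.50 (SE 0.64) for Mxd4 and -0.13 (SE 0.53) for Mnt. Without proliferating replicate 2 these became 0.23, 0.38 and 0.51, so the direction of all 3 turned on that library.

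**Figure D2:**
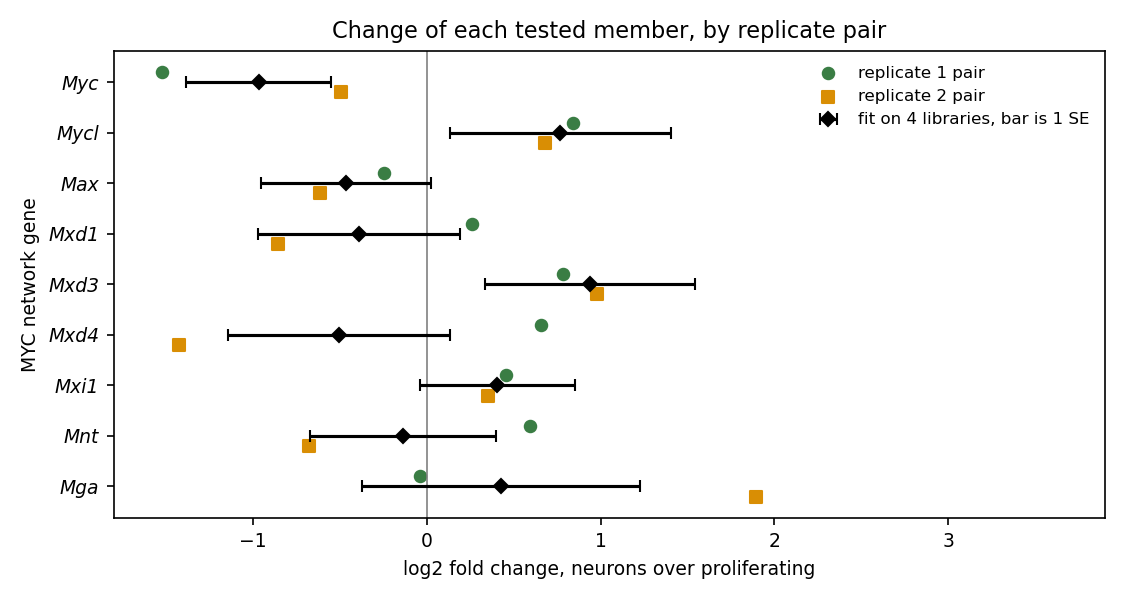
Log2 fold change of neurons over proliferating cells for the 9 tested members, as the fit on all 4 libraries (diamond, bar of 1 SE) and within the replicate 1 pair (circle) and the replicate 2 pair (square). Myc and Max lie left of 0 and Mycl, Mxd3 and Mxi1 right of 0 in both pairs, while Mxd1, Mxd4, Mnt and Mga change side.

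Mga differed more between the proliferating replicates than between the groups. It had 1324 and 125 counts in proliferating cells against 1259 and 623 in neurons, or 108.5 and 16.9 CPM against 106 and 63.3 CPM. In the replicate 1 pair the change was -0.039, and in the replicate 2 pair it was 1.90. The fit gave 0.43 with SE 0.80 (edgeR adjusted p-value 0.9998), 2.30 without proliferating replicate 1 and -0.36 without proliferating replicate 2. Without proliferating replicate 1 its adjusted p-value of 0.0604 was the lowest of any member under any setting, in a fit that takes the remaining proliferating library to vary like the neurons. The low library is the same one that had low division markers and few detected genes.

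No member passed the test. Of 12783 tested genes, 0 were called higher (0%) and 0 lower (0%) in neurons by edgeR at an adjusted p-value under 0.05, so the absence of calls among the 9 tested members is the same as for all genes. At an unadjusted p-value under 0.05 edgeR gave 438 genes and DESeq2 477, with 0 members in either. Myc was under 0.05 in 6 of the other settings (no gene filter, a mean count of at least 50, the 18S row left out, the replicate block, and without proliferating replicate 1 or 2), Mga in the fit without proliferating replicate 1 and Mycl in that without proliferating replicate 2. Both neuron libraries lay above both proliferating ones in CPM for 12.9% of all tested genes and for 2 of the 9 members, Mxd3 and Mxi1. They lay below for 14.5% of all tested genes and for 1 of the 9 members, Myc. Counts this small do not set the members apart from the background. The median fitted change of the 9 was -0.13, against 0.024 over all tested genes, and it ran from -0.61 without proliferating replicate 1 to 0.38 without proliferating replicate 2.

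**Figure D3:**
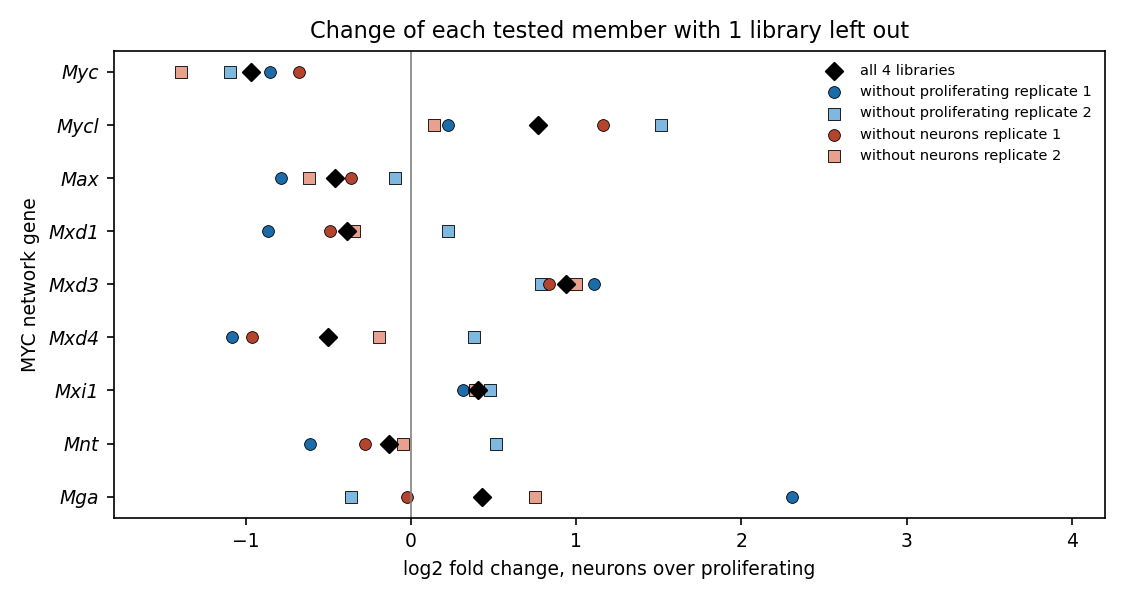
Log2 fold change of each tested member on all 4 libraries (diamond) and with each library left out in turn (coloured by the library left out). Myc stays between -1.39 and -0.68 and Mxi1 between 0.31 and 0.48, whereas Mga runs from -0.36 to 2.30.

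Levels of different genes were compared as counts per 1000000, over the total outside the 18S row, per kilobase of merged GENCODE M21 exons, given as mean ± SD of 2 libraries. In proliferating cells the order was Myc at 1240 ± 346, Max at 15.4 ± 2.76, Mga at 14.0 ± 15.3, Mnt at 10.2 ± 3.91, Mxi1 at 6.40 ± 0.500, Mycl at 3.25 ± 1.47, Mxd3 at 2.09 ± 0.654, Mxd4 at 2.08 ± 1.11, Mxd1 at 1.82 ± 0.668 and Mycn at 0.788 ± 0.374. Mga, at 24.8 and 3.14 in replicates 1 and 2, could not be ordered against Max, Mnt, Mxi1 or Mycl within the spread. Nor could Mycl, Mxd3, Mxd4 and Mxd1 be ordered. In neurons the order was Myc at 580 ± 176, Mga at 16.5 ± 6.77, Max at 10.6 ± 0.905, Mnt at 9.02 ± 1.37, Mxi1 at 7.94 ± 0.337, Mycl at 5.27 ± 2.36, Mxd3 at 3.74 ± 0.454, Mxd4 at 1.43 ± 0.576, Mxd1 at 1.33 ± 0.146 and Mycn at 0.132 ± 0.186. Neighbours whose library values overlapped there were Max and Mnt, Mnt and Mxi1, Mycl and Mxd3, and Mxd4 and Mxd1. The order is tied to the lengths used. The deposited RPKM of Mxd4, 1.76 to 5.37, lay above that of Max, 0.503 to 1.17, since the authors' length for Mxd4 works out at 1179 bases and that for Max at 19220 bases, against merged exons of 8483 and 3598 bases.

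A ratio of genes inside a library does not depend on how libraries are scaled. Per kilobase, Myc exceeded Max by 110-fold and 57.4-fold in the proliferating replicates 1 and 2 and by 45.7-fold and 62.6-fold in the neuron replicates, so the groups overlapped. The ratio of Myc to the sum of the 5 repressors was 76.5 and 38.6 in proliferating cells against 17.9 and 32.9 in neurons. Both neuron libraries thus lay below both proliferating ones, but by very different amounts, -2.10 (replicate 1) and -0.23 (replicate 2) on the log2 scale. The ratio of Max to the same sum was 0.693 and 0.672 against 0.391 and 0.525, again lower in both neuron libraries. With the deposited RPKM values, in which Mxd4 has the highest value of the 5 repressors, the groups overlapped for both ratios. Mycl per Myc was higher in both neuron libraries, at 0.00149 and 0.00431 against 0.00791 and 0.00985. For a ratio of single genes, other lengths rescale all libraries alike, so they cannot change this order.

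**Figure D4:**
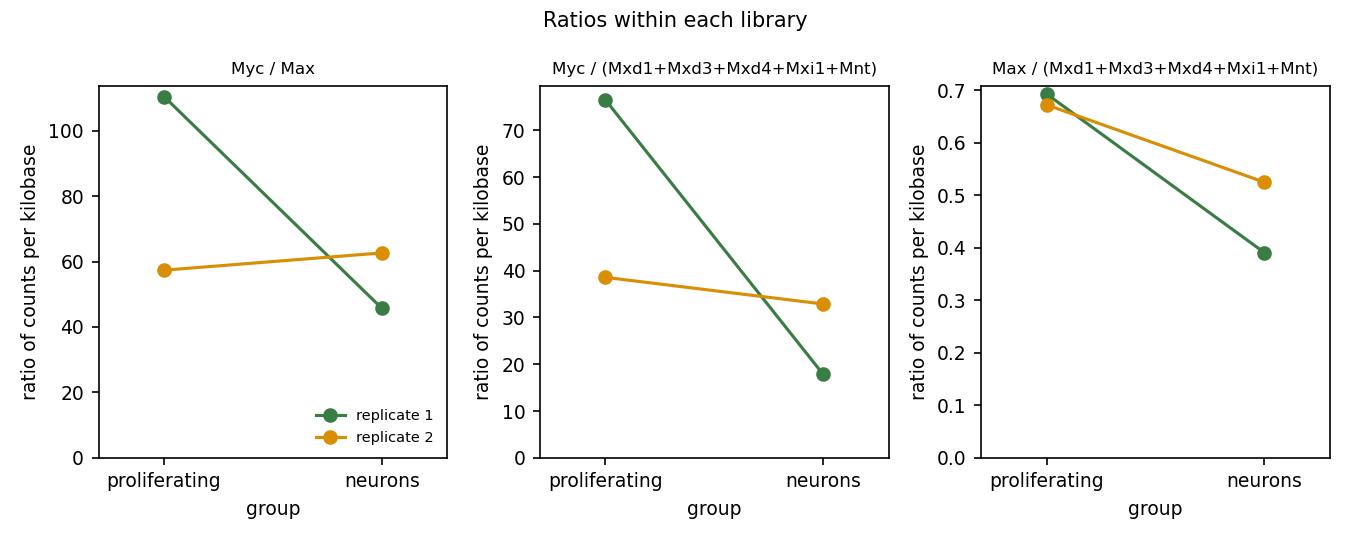
Ratio of counts per kilobase of merged exons inside each library (linear axes from 0), proliferating at left and neurons at right of each panel, with lines joining libraries of equal replicate number. Myc per repressor sum is 76.5 against 17.9 in replicate 1 and 38.6 against 32.9 in replicate 2, while Myc per Max is lower in neurons in replicate 1 only.

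Genes that act with the network were taken from lists of its known partners, regulators and targets. None of their genes passed the edgeR test, against 0% of all tested genes, and 1 of them, Ccnd2, had an unadjusted p-value under 0.05. The parallel dimer system of MLX was represented by Mlx, with 43 to 65 counts, and Mlxip, with 76 to 146 counts, and neither separated the groups, at fitted changes of 0.023 and -0.39. Mlxipl, the glucose-responsive member, had at most 3 counts. Pvt1, the noncoding neighbour of Myc, had 77 and 34 counts in proliferating cells against 69 and 27 in neurons, with pair changes of -0.12 and -0.70 and overlapping groups in CPM.

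Of the 11 MYC cofactors, all tested, each had a fitted change below 0, with a median of -0.24. Both neuron libraries lay below both proliferating ones for 1 of them (9.09%, against 14.5% of all tested genes), the ATPase gene Ruvbl2, at 36.0 ± 5.39 CPM before and 28.8 ± 2.28 CPM after differentiation (SD, n = 2 per group). Trrap, the scaffold of the histone acetyltransferases that MYC recruits, had 890 and 885 counts against 695 and 1054. With the library total this count was 3 of 11 (27.3%) with the 18S row kept, against 18.4% of all tested genes, and 6 of 11 (54.5%) without it, against 21.3%. The direction of the list depended on proliferating replicate 2: without it 9 of the 11 had fitted changes above 0 and the median was 0.13, whereas without proliferating replicate 1 the median was -0.55.

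The SIN3 corepressor genes, which serve the MXD side, had mostly positive fitted changes. Of 8 tested, 7 had fitted changes above 0 with a median of 0.26, and both neuron libraries lay above both proliferating ones for 4 (Hdac1, Hdac2, Sap18 and Ncor1), or 50% against 12.9% of all tested genes. Hdac2, a deacetylase of the complex, had 38.3 and 36.3 CPM in proliferating cells against 53.4 and 46.2 CPM in neurons. For Hdac1 the values were 2.70 and 2.83 against 5.03 and 3.15 CPM, and for Sap18 the difference was 0.099 on the log2 scale, less than its SE of 0.48. Scaled by library totals, 0 of the 8 lay above in both neuron libraries, against 1.75% of all tested genes with the 18S row and 7.85% without it. With library size alone, which moved the median of all genes to -0.27, 4 of the 8 had fitted changes above 0 and the list median was 0.032. Without neuron replicate 2 it was 0.45, and on the log2(RPKM + 1) scale -0.016.

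The 9 PRC1.6 partners of MGA were mixed, with 5 fitted changes above 0 and 4 below and a median of 0.17, which was -0.071 with library size alone and -0.10 without neuron replicate 1. Rnf2, the E3 ligase of Polycomb complexes, was higher in both neuron libraries, at 12.6 and 7.42 CPM against 20.2 and 15.3 CPM. E2f6, a repressive DNA-binding subunit, was lower in both, at 10.6 ± 2.37 and 7.38 ± 0.350 CPM. Each is 1 of 9 (11.1%), against 12.9% of all tested genes higher and 14.5% lower. Scaled by library totals, 0 of the 9 lay above, against 1.75% of all tested genes with the 18S row and 7.85% without it. Those below numbered 0 with that row, against 18.4%, and 2 without it (22.2%, against 21.3%). Rybp had 29 and 6 counts in proliferating cells against 25 and 44 in neurons, and Cbx3 had 103 and 20 against 119 and 52, so both were lowest in proliferating replicate 2, as Mga was.

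Regulators of MYC protein turnover gave 7 fitted changes above 0 and 6 below, with a median of 0.12 over 13 genes, which was -0.18 with library size alone and -0.10 without neuron replicate 1. Gsk3b, the kinase that marks MYC for degradation, was higher in both neuron libraries, with 93.7 and 53.3 CPM in the proliferating replicates against 148 and 97.0 CPM, and Fbxw7, the ubiquitin ligase subunit that reads this mark, overlapped, with 193 and 101 counts against 235 and 120. Stub1, another ubiquitin ligase, was lower in both, at 5.00 and 9.45 against 3.02 and 4.68 CPM, and so was Ppp2r5a. Thus 1 of 13 was higher (7.69%, against 12.9% of all tested genes) and 2 lower (15.4%, against 14.5%). Scaled by library totals, 0 of the 13 lay above, against 1.75% of all tested genes with the 18S row and 7.85% without it. Those below numbered 2 with that row (15.4%, against 18.4%) and 4 without it (30.8%, against 21.3%). Cip2a, a stabilizer of MYC, had 210 and 12 counts in proliferating cells against 281 and 111 in neurons, another gene lowest in proliferating replicate 2.

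Of 26 growth genes that MYC is known to activate, 25 were tested and Tert, the telomerase gene, had 0 counts in all 4 libraries. Of these 25, 18 had fitted changes below 0 and 7 above, with a median of -0.35. Both neuron libraries lay below both proliferating ones for 8 (32% against 14.5% of all tested genes): the ribosome assembly genes Nolc1, Bysl, Utp20, Ppan and Ddx18, the RNA polymerase I subunit gene Polr1b, the spermidine synthase gene Srm and the cyclin gene Ccnd2. For 0 of them did both lie above, against 12.9%. Scaled by library totals the lower genes numbered 9 with the 18S row (36%, against 18.4% of all tested genes) and 12 without it (48%, against 21.3%). By pair the list was uneven, with a median of 0.020 for replicate 1 and -0.63 for replicate 2. Leaving out proliferating replicate 2 brought the list median to -0.035, and leaving out proliferating replicate 1 to -0.68.

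Ccnd2, which encodes cyclin D2 and drives entry into S phase, was the clearest of them. It had 232 and 253 counts in proliferating cells against 66 and 84 in neurons, or 26.6 ± 10.7 CPM against 7.04 ± 2.12 CPM (SD, n = 2 each). The fitted change of -1.92 (SE 0.54) had an unadjusted p-value of 0.0086 and did not pass the adjustment, with -1.74 and -1.98 in the pairs. Bysl had 91 and 222 counts in proliferating cells against 75 and 56 in neurons, so its fitted change of -1.63 came mostly from the replicate 2 pair (-2.36, against -0.24 in the replicate 1 pair). The nucleolar genes Npm1 and Ncl went the other way within both pairs: Npm1 had 1103 and 260 counts against 2139 and 831, with pair changes of 0.99 and 1.26, and Ncl had pair changes of 0.32 and 0.67. Promoter windows were found for 21 of the growth genes, and 9 of these held CACGTG (42.9%, against 8.09% of all genes): Wdr43, Mybbp1a, Utp20, Ldha, Cdk4, Eif4e, Eif4a1, Hspd1 and Apex1. The related CACGCG occurred for 8 of the 21 (38.1%, against 10.5% of all genes), so a higher share was not particular to CACGTG. Neither share was tested, and the list was made of known MYC targets. Of the 9 genes with CACGTG, Utp20 is also among the 8 genes whose neuron libraries were both lower.

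Of 9 genes that MYC is known to repress, 7 were tested, 6 of them with fitted changes below 0. Their median was -0.15, and it ran from -0.93 without neuron replicate 2 to 0.12 without neuron replicate 1, with -0.65 without proliferating replicate 1, -0.25 without proliferating replicate 2, -0.56 with the replicate block and -0.55 with library size alone. Cdkn1b, which encodes the cyclin kinase inhibitor p27, was higher in both neuron libraries, with 268 and 150 counts in proliferating cells against 404 and 428 in neurons, a fitted change of 0.87 (SE 0.44, edgeR unadjusted p-value 0.0879). Cdkn1a, the gene for p21, was lower in both, with 27 and 31 counts against 6 and 20, and so was Gadd45a. Thus 1 of 7 was higher (14.3%, against 12.9% of all tested genes) and 2 lower (28.6%, against 14.5%). With the 18S row kept in the library total, 0 of the 7 lay above, against 1.75% of all tested genes. On that scale 3 lay below (42.9%, against 18.4%). Without that row 1 lay above (14.3%, against 7.85%) and 2 below (28.6%, against 21.3%). Of 7 genes of this list with promoter windows, 0 held CACGTG, against 8.09% of all genes. So few windows cannot be told apart from that share.

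**Figure D5:**
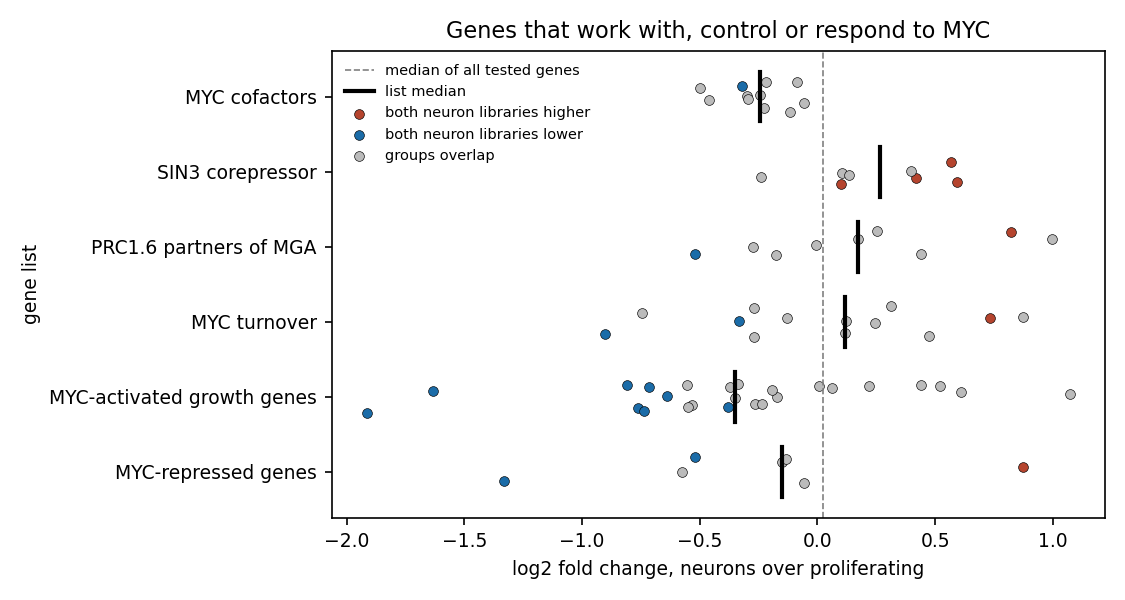
Fitted log2 fold change of each tested gene in 6 lists of MYC partners, regulators and targets, coloured by whether both neuron libraries lay above (red) or below (blue) both proliferating libraries in CPM, with the list median (black bar) and the median of all tested genes (dashed). The growth genes have 8 blue and 0 red points and a median of -0.35.

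The genes most like Myc across the 4 libraries were sought by the smallest Euclidean distance of centred log2 CPM among 7294 other genes whose counts averaged 50 or more. They were Adgrb2 (distance 0.16), Ltbp3 (0.17) and Nfe2l2 (0.20), with fitted changes of -0.89, -1.08 and -1.18. For Mycl they were Kcnj12 (0.16), Igsf8 (0.23) and Tmcc2 (0.23), with fitted changes of 0.86, 0.51 and 0.56. With 4 libraries such likeness describes the order and size of 4 values and nothing more.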

How the data were processed

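Total RNA of 4 cultures was sequenced after ribosomal RNA depletion from 500 ng, with a stranded kit, per the labels' protocols. The authors deposited raw counts per gene symbol and RPKM values for each library. Per the submitters' processing notes HISAT2, SAMtools, featureCounts, DESeq2 and deepTools 3.4.3 and the build mm10 were used, while the annotation and the strand setting are not given in the sources used here. The deposited RPKM equals the count over the library total, 18S row included, and over a fixed length per gene. Groups and replicate numbers came from the titles. The test was edgeR 4.0.16 in R 4.3.3 (TMM factors, filterByExpr with minimum count 10 and minimum total 15, glmQLFit, glmQLFTest) on 12783 genes and 4 libraries, two-sided, with Benjamini-Hochberg adjustment over all of them and a threshold of 0.05. It was also run on simulated counts, whose outcome is not given here and is not used as support. The biological coefficient of variation of the fit was 0.456. Pair changes subtract log2 CPM values (prior count 2) between libraries of equal number, without a test. Lengths came from GENCODE M21 and loci and promoters from RefSeq. Python 3.11.15 and pandas 2.3.3 were used for the remaining values.

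In their titles the replicate 2 libraries are marked set 2, so the numbers were taken to mark a shared set, and deviations of same-numbered libraries from their group means correlated across genes with r = 0.33. Alternatives were RLE factors, no scaling factor, DESeq2 1.42.0, no gene filter, a mean count of at least 50, limma 3.58.1 on log2(RPKM + 1) and log2(RPKM + 0.1), the 18S row left out, the replicate block, and each library left out. The members, lists and tests were chosen with earlier results of these data known. Named genes are the 10 members, the genes of 8 lists and the 3 genes nearest in pattern to each tested MYC gene. Genes of 7 marker lists served to describe the libraries.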

Additional observations from a re-analysis of the deposited data

How the results depend on the processing

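No setting called any member. Myc, Max, Mycl, Mxd3 and Mxi1 kept their direction under every setting run, with fitted changes of -1.41 to -0.68 for Myc, -0.79 to -0.094 for Max, 0.14 to 1.51 for Mycl, 0.31 to 1.11 for Mxd3 and 0.056 to 0.48 for Mxi1. Mga reversed with library size alone (-0.11), log2(RPKM + 1) (-0.0004), without proliferating replicate 2 (-0.36) and without neuron replicate 1 (-0.022). Without proliferating replicate 2, Mxd1 (0.23), Mxd4 (0.38) and Mnt (0.51) also reversed. With 1 library left out the lowest values were -0.86, -1.09 and -0.61 for these 3, and the highest for Mga was 2.30. A mean count of at least 50 left Mxd1, Mxd3 and Mxd4 untested. Of all genes, DESeq2 gave 12 higher and 48 lower calls and no adjusted p-value for 1240 genes, and no gene filter gave 41 higher and 122 lower. Library size alone gave 2 lower, log2(RPKM + 1) 1 lower, log2(RPKM + 0.1) 2 lower and the replicate block 3 lower, each with 0 higher. With 1 library left out the calls were 1 to 54 higher and 9 to 106 lower, most without proliferating replicate 1. The cause of these differences was not tested. With the replicate block Myc had a fitted change of -1.01 and an adjusted p-value of 0.747, and no call of a member changed. The medians of the lists with each library left out, and those of the members under settings other than library size alone and left-out libraries, were added after seeing the data. Mycn at 0 to 9 and Mxd3 at 10 to 37 counts are limited by depth.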
